A study of Mus musculus with 21 samples.

Results

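Plin4, the gene of the lipid droplet coat protein perilipin 4, was set beside 9 genes of the glucocorticoid response in the neocortex of rNLS8 mice, an ALS model, and their controls. The 10 genes, which were Plin4, Fkbp5, Tsc22d3, Sgk1, Zbtb16, Sult1a1, Errfi1, Pdk4, Map3k6 and the receptor gene Nr3c1, were found by symbol among the 48474 rows of the deposited count table. They were selected with the difference between the genotypes in these libraries already known, so that difference is given as a description and its p-values support nothing. The question was whether Plin4 followed the other 9 genes. Plin4 was higher in every rNLS8 mouse than in every control, 3.70-fold over all mice. The highest control lay just below the lowest rNLS8 mouse, and 3.85% of all 18248 genes tested were separated in this direction. The other 9 genes differed by between -0.18 and 0.39 on the log2 scale and overlapped between the genotypes. Among mice of the same group, those with more Fkbp5 had more Plin4 on average, with a test that just missed its threshold in edgeR (adjusted p = 0.0574) and passed it in DESeq2, a fit that was added after the values were seen and that called 643 genes. The regression on Plin4 called none of the other 9 genes and none of all 18247 genes tested.

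Bulk RNAseq was available for 21 mice, 11 labelled WT and 10 labelled TG. TG mice were bigenic rNLS8 animals, in which NEFH-tTA, driven by the neurofilament heavy chain promoter, switches on tetO-hTDP-43ΔNLS, a human TDP-43 lacking its nuclear localization signal, mostly in neurons. The mice labelled WT were described as monogenic littermates, so the label does not mean that they lacked every transgene. Both lines had been backcrossed to C57BL/6J. All mice, of either genotype, were 17 to 19 weeks old when 350 µg of a non-targeting antisense oligonucleotide was injected in 10 µL into the cerebral ventricles. They then stayed on a diet with 200 mg/kg doxycycline, which keeps the transgene off, for 2 weeks and were killed after 3 weeks without it. Cohort A held 4 WT and 3 TG mice and cohort B held 7 WT and 7 TG mice, and each library came from 1 mouse, named here by its genotype and a number.

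Each library had between 20700912 and 22263809 counts. TG mice 9 and 8, both of cohort A, were the TG mice farthest from the others, with a median distance of 0.514 and 0.470 log2 units over all genes tested, against 0.363 to 0.433 for the other TG mice. Among WT mice it was WT mouse 8, also of cohort A, with 0.482, against 0.357 to 0.422 for the other WT mice. Markers of neocortex were present in all mice, with a summed level of 457 to 611 CPM (counts scaled to a common library total) in WT and 371 to 474 CPM in TG mice. Transcripts of neighbouring tissue varied between mice, with sums of 21.9 to 2254 CPM in WT and 29.9 to 1147 CPM in TG mice for choroid plexus markers and of 215 to 1162 and 189 to 916 CPM for striatum markers. Pituitary hormone transcripts stood out in 1 mouse of each genotype, WT mouse 5 and TG mouse 5. The sex of the mice was not given, and Xist, which is transcribed from the inactive X chromosome of females, was high in all 7 mice of cohort A but in only 3 of 7 WT and 1 of 7 TG mice of cohort B.

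Glucocorticoid hormones such as corticosterone enter the cell and bind the glucocorticoid receptor, which Hsp90 and its co-chaperones hold ready in the cytosol. The bound receptor moves to the nucleus and attaches to DNA, classically at a pair of inverted hexamers, and switches on genes such as Fkbp5 and Tsc22d3 in neurons, glia and vessels alike. Several of these genes feed back on the receptor or on metabolism, and many follow the daily rhythm and stress of the animal.

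The promoters of the genes were searched for the receptor's palindrome, because the genes are grouped by their hormone response. RefSeq promoter windows (GRCm38.p6, from -250 to 50 around a transcript start) were found for 8 of the 10 genes, 16 windows in all. The palindrome, AGAACA followed after any 3 bases by its reverse complement and searched on both strands, was held by 0.00913% of all 32851 windows and, among these genes, by Sgk1. Its shorter core, GNACA followed after any 3 bases by its reverse complement, was held by 0.475% of all windows and, among these genes, by Sgk1 and Map3k6, the Sgk1 match being the one inside the palindrome. The 3 stretches below are shown since Sgk1 and Map3k6 hold the core, printed in capitals, while no match was found in the windows of Plin4, on which the results turn.
Sgk1, chr10:21993672-21993744, plus strand: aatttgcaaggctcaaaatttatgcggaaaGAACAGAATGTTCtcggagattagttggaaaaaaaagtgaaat
Map3k6, chr4:133240607-133240679, plus strand: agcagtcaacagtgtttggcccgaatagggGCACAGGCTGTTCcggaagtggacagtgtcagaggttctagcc
Plin4, chr17:56109949-56110032, minus strand: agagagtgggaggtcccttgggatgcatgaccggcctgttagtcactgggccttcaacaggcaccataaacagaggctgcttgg
The palindrome of Sgk1 lay at -189 to -175 from one of its transcript starts and the core of Map3k6 at -181 to -169 from one of its own. The single hexamer AGAACA, which overlaps the palindrome, was held by 19.0% of all windows and by Sgk1, Sult1a1 and Tsc22d3. The hexamer AGGTCA repeated after any 1 base, the classical site of the fatty acid receptors of the PPAR family, was held by 0.0396% of all windows and by none of the 16, which says only that these letters are not in these windows.

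Plin4 was at a low level in WT mice. It had 54.2, 37.9, 63.7 and 24.4 normalized counts (counts scaled to the mean library by TMM) in WT mice 8 to 11 of cohort A, and between 35.2 and 105 in the 7 WT mice of cohort B, with a median of 57.4. In TG mice 8, 9 and 10 of cohort A it had 301, 358 and 348 normalized counts, and in the 7 TG mice of cohort B between 106 and 216, with a median of 154. The groups did not overlap, although the highest WT mouse, mouse 5 with 104.9, lay just below the lowest TG mouse with 105.9. The means were 55.2 ± 21.5 (SD, n = 11) in WT and 212 ± 91.4 (SD, n = 10) in TG mice, a log2 fold change of 1.89 ± 0.22 (SE) with cohort as covariate. Among all 18248 genes tested, 3.85% had every TG mouse above every WT mouse.

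The other 9 genes showed no such separation. Of the 10 genes, 4 passed an adjusted p of 0.05 between genotypes (edgeR quasi-likelihood, Benjamini-Hochberg adjustment), which were Plin4, Tsc22d3, Zbtb16 and Sult1a1, all higher in TG mice. For comparison, 23.0% of all genes tested were called higher in TG mice, 21.7% lower and 44.7% in either direction, and since the genes were selected on this contrast nothing is read from their count. The median log2 fold change of the 10 genes was 0.16, and over all genes it was close to 0. In bulk tissue, a change in the number of cells that express a gene and a change in RNA per cell cannot be told apart.

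**Figure D1:**
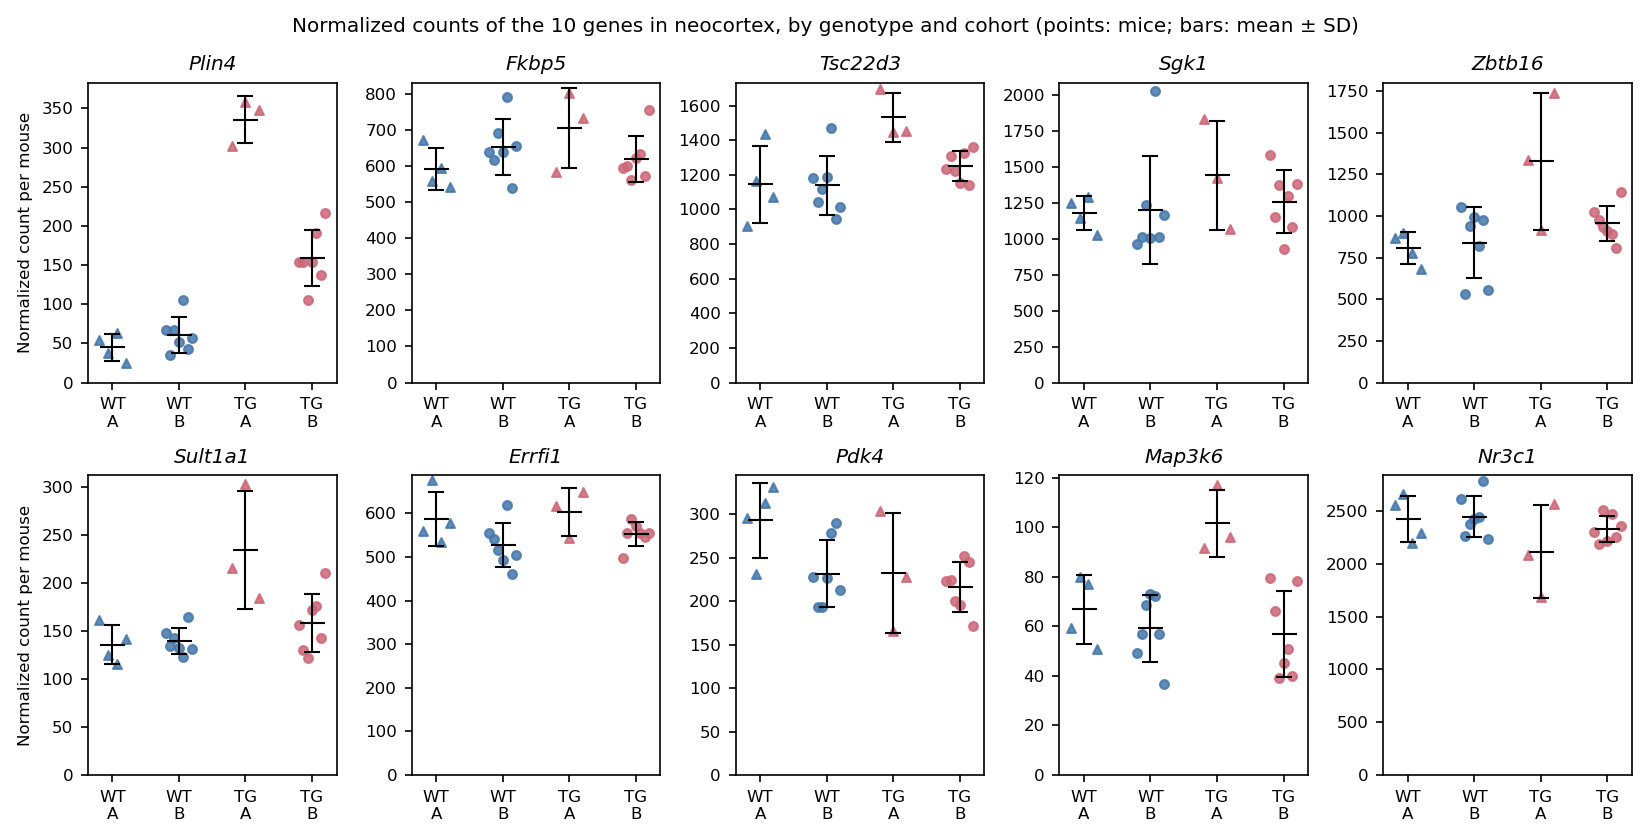
Normalized counts of the 10 genes (vertical axes, starting at 0) in WT (blue) and TG (red) mice of cohort A (triangles) and cohort B (circles). Points are single mice and bars give the mean ± SD of each group of 3 to 7 mice. Plin4 alone has all 10 TG mice above all 11 WT mice, and the cohort A TG mice lie at 301 to 358.

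Nr3c1, the gene of the glucocorticoid receptor itself, did not pass the threshold between genotypes. It had between 2200 and 2785 normalized counts in WT mice, with a median of 2426. In TG mice 8, 9 and 10 of cohort A it had 2082, 1689 and 2569, and in those of cohort B between 2188 and 2511, with a median of 2305. The ranges overlapped except for 3 TG mice below every WT mouse, and the log2 fold change was -0.11 ± 0.06 (SE).

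Fkbp5, a co-chaperone that the receptor induces and that lowers the receptor's affinity for hormone, is among the most used markers of glucocorticoid action in brain. In cohort A, WT mice 8 to 11 had 673, 558, 596 and 542 normalized counts and TG mice 8 to 10 had 584, 802 and 732.5. In cohort B, WT mice ranged from 539 to 792 with a median of 638, and TG mice from 560 to 755 with a median of 601. The genotypes overlapped almost completely, with only TG mouse 9 above every WT mouse, and the log2 fold change was 0.03 ± 0.07 (SE). A second row of the table, Fkbp5-2, carried 49.8% of the reads of both rows, and Errfi1-2 carried 50.5% for Errfi1, so the level of either gene is uncertain while the genotype difference was alike in both rows (log2 fold change 0.02 for Fkbp5-2 and 0.06 for Errfi1-2).

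Tsc22d3, which encodes the leucine zipper protein GILZ, had 903, 1164, 1439 and 1073 normalized counts in WT mice 8 to 11 and 1694, 1449 and 1452 in TG mice 8 to 10. In cohort B its range was 946 to 1472 in WT mice (median 1120) and 1141 to 1361 in TG mice (median 1231). All 10 TG mice lay above the WT median but only TG mouse 8 above every WT mouse, and the log2 fold change was 0.23 ± 0.08 (SE). Zbtb16, a transcriptional repressor also known as PLZF, had 866, 896, 780 and 682 normalized counts in WT mice 8 to 11 and 1338, 914 and 1736 in TG mice 8 to 10. Its range in cohort B was 533 to 1053 in WT mice (median 939) and 808 to 1142 in TG mice (median 936). The cohort B medians were thus nearly the same, and the log2 fold change over both cohorts was 0.37 ± 0.13 (SE).

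Sgk1 encodes a kinase that acts on ion channels and transporters. It had 1248, 1143, 1293 and 1025 normalized counts in WT mice 8 to 11 and 1831, 1420 and 1070 in TG mice 8 to 10. In cohort B it ranged from 966 to 2027 in WT mice (median 1012) and from 927 to 1584 in TG mice (median 1298). No TG mouse exceeded WT mouse 5 with its 2027 normalized counts, and TG over WT gave a log2 fold change of 0.14 ± 0.12 (SE). Map3k6, a stress-activated kinase, had 59.5, 80.1, 77.0 and 51.0 normalized counts in WT mice 8 to 11 and 91.7, 117 and 95.9 in TG mice 8 to 10. All 3 of the latter exceeded every WT mouse, but in cohort B the WT range of 36.5 to 73.2 (median 57.0) lay inside the TG range of 39.0 to 79.3 (median 50.7) but for its low end, and the pooled log2 fold change was 0.18 ± 0.16 (SE). Errfi1, an inhibitor of the EGF receptor, was nearly level, with 461 to 677 normalized counts in WT (median 541) and 498 to 650 in TG mice (median 556) and a log2 fold change of 0.06 ± 0.05 (SE).

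Sult1a1 and Pdk4 are metabolic genes. Sult1a1, a sulfotransferase of phenols, had 162, 125, 116 and 141 normalized counts in WT mice 8 to 11 and 216, 304 and 185 in TG mice 8 to 10. In cohort B it ranged from 123 to 165 in WT mice (median 135) and from 122 to 211 in TG mice (median 157). After Plin4, this was the gene with most TG mice above every WT mouse, 6 of 10, and its log2 fold change was 0.39 ± 0.11 (SE). Pdk4, which restrains the entry of pyruvate into the mitochondrial cycle, had 295, 232, 313 and 332 normalized counts in WT mice 8 to 11 and 303, 165 and 227.5 in TG mice 8 to 10. Its cohort B range was 193 to 290 in WT mice (median 227) and 171 to 252 in TG mice (median 223). It was lower on average in TG mice, at -0.18 ± 0.10 (SE) on the log2 scale, with 2 TG mice below every WT mouse.

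Divided by the exon length of each gene, the WT level ran from 14.9 CPM per kilobase for Nr3c1, 12.3 for Tsc22d3 and 11.4 for Sgk1 down to 0.630 for Map3k6 and 0.447 for Plin4. In TG mice Plin4 reached 1.72 CPM per kilobase, above Map3k6 at 0.715 but still below Pdk4 at 2.95.

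The genotype differences were also taken within each cohort. In cohort A alone, the log2 fold change was 2.91 ± 0.25 (SE) for Plin4, 0.81 ± 0.19 for Sult1a1, 0.74 ± 0.18 for Zbtb16, 0.62 ± 0.21 for Map3k6 and 0.44 ± 0.15 for Tsc22d3. In cohort B alone, the same genes had 1.37 ± 0.19, 0.17 ± 0.11, 0.18 ± 0.13, -0.06 ± 0.19 and 0.12 ± 0.08. Plin4 thus had the greatest value of the 10 genes in either cohort. Without TG mice 8 and 9, 2 of the 10 genes were past the threshold in the fit over both cohorts, where 7668 of 18390 genes were. Fkbp5 had 0.28 ± 0.13 in cohort A and -0.08 ± 0.08 in cohort B.

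**Figure D2:**
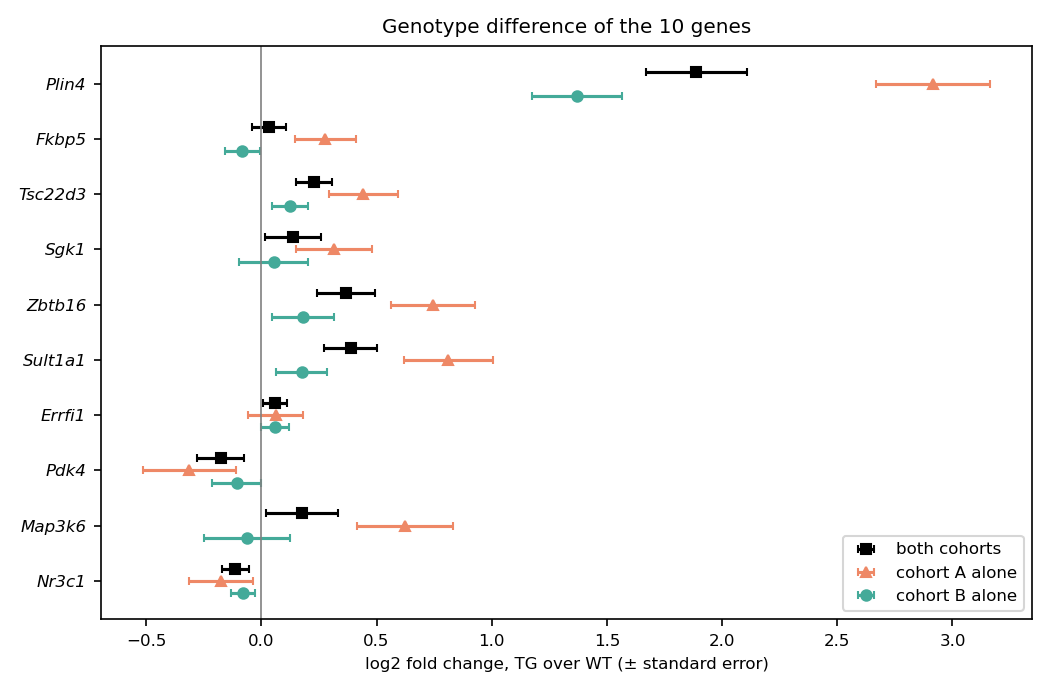
Log2 fold change of TG over WT mice (horizontal axis) with its standard error for the 10 genes, over both cohorts (black squares), in cohort A alone (orange triangles) and in cohort B alone (green circles). Plin4 lies at 1.89, 2.91 and 1.37, and for Zbtb16, Sult1a1 and Map3k6 the cohort A value lies well to the right of that of cohort B.

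Whether the genotype difference itself differed between the cohorts was tested as an interaction over all genes. For Plin4 the difference was 1.51 ± 0.35 (SE) on the log2 scale greater in cohort A, with an unadjusted p of 0.000233 and an adjusted p of 0.532 by edgeR's quasi-likelihood test. This cohort dependence of Plin4 had been seen in these libraries before the genes were chosen. None of the 10 genes was past the threshold, with 0 of all genes called by edgeR, 1030 genes at an unadjusted p under 0.05, and 1 gene called by DESeq2. At an unadjusted p under 0.05 were 5 of the 10 genes, against 5.64% of all genes, all 5 with the greater difference in cohort A. They were Plin4, Sult1a1 at 0.60 ± 0.21, Map3k6 at 0.66 ± 0.31, Zbtb16 at 0.53 ± 0.25 and Fkbp5 at 0.33 ± 0.15. Plin4 is among these 5 and the genes were chosen with earlier results known, so nothing is read from their count.

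Within TG mice, Plin4 was higher in cohort A. Its level was 1.09 ± 0.16 (SE) log2 units higher in cohort A than in cohort B (edgeR, adjusted p = 0.00674), and each of the 3 mice of cohort A, at 301 or more normalized counts, lay above all 7 of cohort B, at 216 or less. As this restates the cohort dependence seen before the genes were chosen, the p of Plin4 is a description and supports nothing. Map3k6 was also higher in cohort A, by 0.84 ± 0.22 (adjusted p = 0.0457), and Tsc22d3 by 0.30 ± 0.08 (adjusted p = 0.0478). These 3 of the 10 genes were called, against 5.18% of all genes tested in either direction and 3.37% called higher in cohort A. Since Plin4 is among the 3, nothing is read from their count. Zbtb16 at 0.48 ± 0.15 (adjusted p = 0.0723) and Sult1a1 at 0.57 ± 0.18 (adjusted p = 0.0721) missed the threshold in edgeR, while both passed it in DESeq2, at 0.47 (adjusted p = 0.0401) and 0.56 (adjusted p = 0.0336). Nr3c1 was the one gene with a negative value, -0.14 ± 0.10. The call of Plin4 held with each TG mouse left out in turn, with values of 0.99 to 1.15, but that of Tsc22d3 held in 1 and that of Map3k6 in 2 of these 10 fits. Tsc22d3 and Map3k6 also lost their calls with scaling by library size only, with TG mouse 5 left out and with the level of Xist in the model. The fit with Xist called only 4 of 18956 genes, and in it Tsc22d3 had 0.18 and Map3k6 1.03.

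Cohort and Xist level were nearly the same split among TG mice. With the level of Xist in the model, the cohort difference of Plin4 was 0.89 with an adjusted p of 0.278 in edgeR. That fit called 4 genes in all, against 982 without Xist. TG mouse 5, the one TG mouse of cohort B with high Xist, had 190 normalized counts of Plin4, within the cohort B range. Among TG mice, cohort and Xist level cannot be told apart further. In the 4 alternative fits of the interaction over both genotypes, 1 of them with Xist added, Plin4 had 1.38 to 1.51.

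Within WT mice no such difference was called. None of the 10 genes was called between cohorts, where 8.03% of all genes were (edgeR), and 1 of them, Pdk4, had an unadjusted p under 0.05 (0.33 ± 0.13 log2 units higher in cohort A, adjusted p = 0.122). Plin4 was at -0.44 ± 0.29 (SE) in cohort A relative to cohort B, opposite in sign to the difference in TG mice, with an adjusted p of 0.376.

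To ask whether Plin4 followed the other genes apart from genotype, its variation among mice of the same genotype and cohort was used, since the means of the 4 groups are then taken out. The level of each gene was regressed on that of Fkbp5, in log2 units, with the 4 groups in the model. Per log2 unit of Fkbp5, Plin4 was higher by 1.83 ± 0.38 (SE) log2 units, with an unadjusted p of 7.87e-05 and an adjusted p of 0.0574 by edgeR, just outside the threshold. By DESeq2 the slope was 1.82 with an adjusted p of 0.00288, and with the level of Xist in the model it was 1.71 and also past the threshold in edgeR, in a fit that called 522 of 18247 genes. DESeq2 called 643, against 8 in edgeR without Xist. The slope was positive with each mouse left out in turn, between 1.54 without WT mouse 5 and 2.32 without TG mouse 8, and past the threshold in 2 of these 21 fits. It was 2.71 ± 0.63 in WT mice alone and 1.28 ± 0.38 in TG mice alone, with adjusted p of 0.131 and 0.503.

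**Figure D3:**
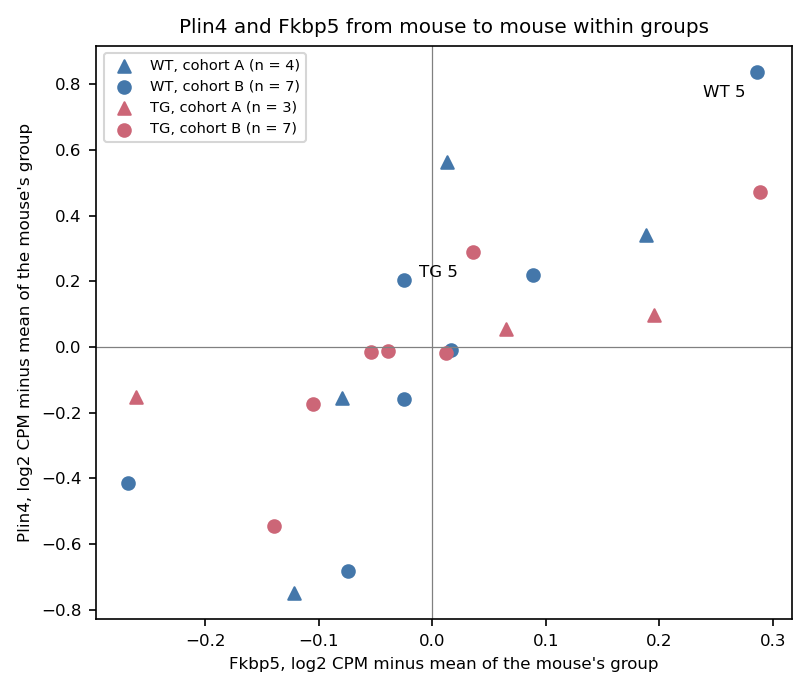
Level of Plin4 (vertical) against that of Fkbp5 (horizontal) in each of the 21 mice, both as log2 CPM minus the mean of the mouse's genotype and cohort group. WT mouse 5 lies highest for Plin4, and the mice with least Fkbp5 for their group lie below 0 on the Plin4 axis.

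Among the 18247 genes tested, 8 followed Fkbp5 past the threshold (0.0438%), none of them among the 10, and 3372 had an unadjusted p under 0.05, while DESeq2 called 643. Of the 8, Fkbp5-2 is the second row under the symbol Fkbp5, and Slc2a1, the glucose transporter of brain vessels, had a slope of 0.81 ± 0.12. The others that rose with Fkbp5 were Vcp-rs, Pomgnt2, Prpf6 and Tmem130, and Gm34776 and Rnf225 fell. Ranked by the test statistic among genes with a mean of at least 50 counts over the mice and a positive slope, Nsg1, Sema3g and Rtl8c-2 came next and Plin4 was the 10th. The remaining 8 genes of the group did not pass. Their slopes were 0.84 ± 0.46 (SE) for Map3k6, 0.62 ± 0.38 for Sgk1, 0.54 ± 0.32 for Sult1a1, 0.30 ± 0.25 for Tsc22d3 and -0.64 ± 0.32 for Pdk4 among others, each with an adjusted p of 0.284 or more by edgeR. Several of these depended on 1 mouse, as the slope of Sgk1 was -0.04 and that of Tsc22d3 0.00 without WT mouse 5.

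The reverse regression, on Plin4, called no gene by edgeR (0 of 18247) and none by DESeq2, with 1116 and 1071 genes at an unadjusted p under 0.05. Per log2 unit of Plin4, Fkbp5 changed by 0.29 ± 0.07 (SE, unadjusted p = 0.000213, adjusted p = 0.629), Sgk1 by 0.37 ± 0.13, Tsc22d3 by 0.24 ± 0.08 and Map3k6 by 0.36 ± 0.18 in edgeR's fit. Of the 9 genes, 8 had a positive slope and 3, Fkbp5, Tsc22d3 and Sgk1, an unadjusted p under 0.05, against 49.8% and 6.12% of all genes. Markers of neighbouring tissue leaned the same way, with positive slopes on Plin4 for all 8 choroid plexus, all 6 striatum, 6 of 8 mural and fibroblast and all 3 pituitary markers tested but 1 of 5 blood markers, and none past the threshold. Errfi1, Pdk4 and Nr3c1 were near 0, at 0.04, 0.00 and -0.01. Without WT mouse 5 and TG mouse 5, Fkbp5 kept 0.27, while Sgk1 had 0.14 and Tsc22d3 0.16.

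**Figure D4:**
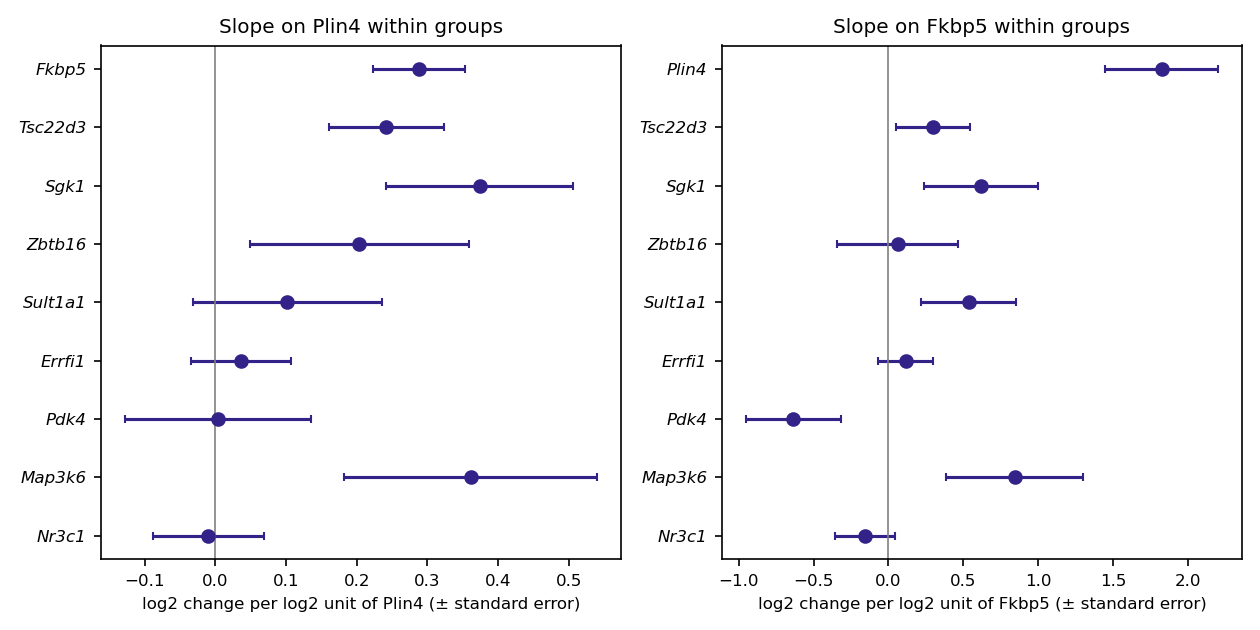
Slope of each gene on the level of Plin4 (left) and of Fkbp5 (right) within the 4 genotype and cohort groups, in log2 units per log2 unit, with standard errors. Fkbp5 at 0.29 lies farthest from 0 for its error on the left and Plin4 at 1.83 on the right.

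The genes most like Plin4 in this sense, ranked by the test statistic with a positive slope and a mean of at least 50 counts over the 21 mice, were Prl, Fkbp5-2, Cables1, Fkbp5, Pomc, Supt7l, P2ry1, Slc2a1, Paqr5 and Vwf. Prl and Pomc are pituitary hormone genes that were high in only 1 mouse of each genotype. WT mouse 5 had 1321 normalized counts of Prl and 673 of Pomc and TG mouse 5 had 2362 and 1441, against at most 153 and 92.1 in any other mouse. WT mouse 5 was also the highest WT mouse for 4 of the 10 genes, Plin4, Fkbp5, Tsc22d3 and Sgk1. Without these 2 mice the slope of Plin4 on Fkbp5 was 1.51 ± 0.41 (adjusted p = 0.0977). In the same fits on Fkbp5, all 8 choroid plexus markers, all 6 striatum markers, all 8 mural and fibroblast markers, all 5 blood markers and the 3 pituitary markers tested had positive slopes, as 51.1% of all genes did, and none of these markers was past the threshold in edgeR. With the choroid plexus level in the model, Plin4 kept a slope of 1.78 on Fkbp5 (adjusted p = 0.0577). The part of striatum, mural, fibroblast and blood transcripts in these slopes was not tested.

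Other genes known to be induced by glucocorticoids were compared between genotypes. Of 28 such genes 27 could be tested, of which 6 were higher and 4 lower in TG mice by edgeR's test over all genes, where 23.0% of all genes were higher and 21.7% lower, and 17 did not pass. Their median log2 fold change was 0.02, close to that of all genes. Cdkn1a, an inhibitor of the cell cycle, rose most, from 390 ± 84.9 (SD, n = 11) to 724 ± 256 (SD, n = 10) normalized counts, by 0.90 ± 0.09 (SE) on the log2 scale with an adjusted p of 1.79e-08 in edgeR. Klf15, a transcription factor that the receptor induces directly, rose by 0.48 ± 0.05 from 553 ± 41.2 (SD) normalized counts. Xdh rose by 0.75 ± 0.15, Hif3a by 0.72 ± 0.22, Cebpd by 0.52 ± 0.14 and Ucp2 by 0.42 ± 0.12.

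Those that fell were Gpd1, a glycerol phosphate dehydrogenase of oligodendrocytes, at -0.29 ± 0.05 (SE), Glul, the glutamine synthetase of astrocytes, at -0.19 ± 0.04, the repressor Bcl6 at -0.29 ± 0.06 and the insulin receptor substrate Irs2 at -0.29 ± 0.10 on the log2 scale. The standard targets Per1 at 0.11 ± 0.11, Klf9 at -0.10 ± 0.05, Ddit4 at -0.09 ± 0.09 and Mt2 at 0.11 ± 0.10 did not pass. Beside these differences, 7 of 10 neuron markers and 6 of 9 astrocyte markers were called lower and 6 of 8 microglia markers higher in TG mice, against 21.7% of all genes lower and 23.0% higher, and 1 of 10 oligodendrocyte markers was called, lower. In each of the first 3 lists 1 marker was called the other way, as Thy1 of neurons rose by 0.44 and Gfap of astrocytes by 1.03 on the log2 scale, while P2ry12 of microglia fell by 0.35. The part of cell numbers in the gene values was not tested. Within groups, 23 of the 27 genes had a positive slope on Plin4, among them Hif3a at 0.66 ± 0.23 and Xdh at 0.49 ± 0.14, and 20 of 27 on Fkbp5, where 49.8% and 51.1% of all genes had a positive slope, and none was past the threshold in edgeR. A lean to positive slopes on Plin4 was also seen in other lists, with 11 of 11 PPAR target genes and 12 of 16 clock genes beside the choroid plexus and striatum markers above, so it is not read as particular to these genes.

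**Figure D5:**
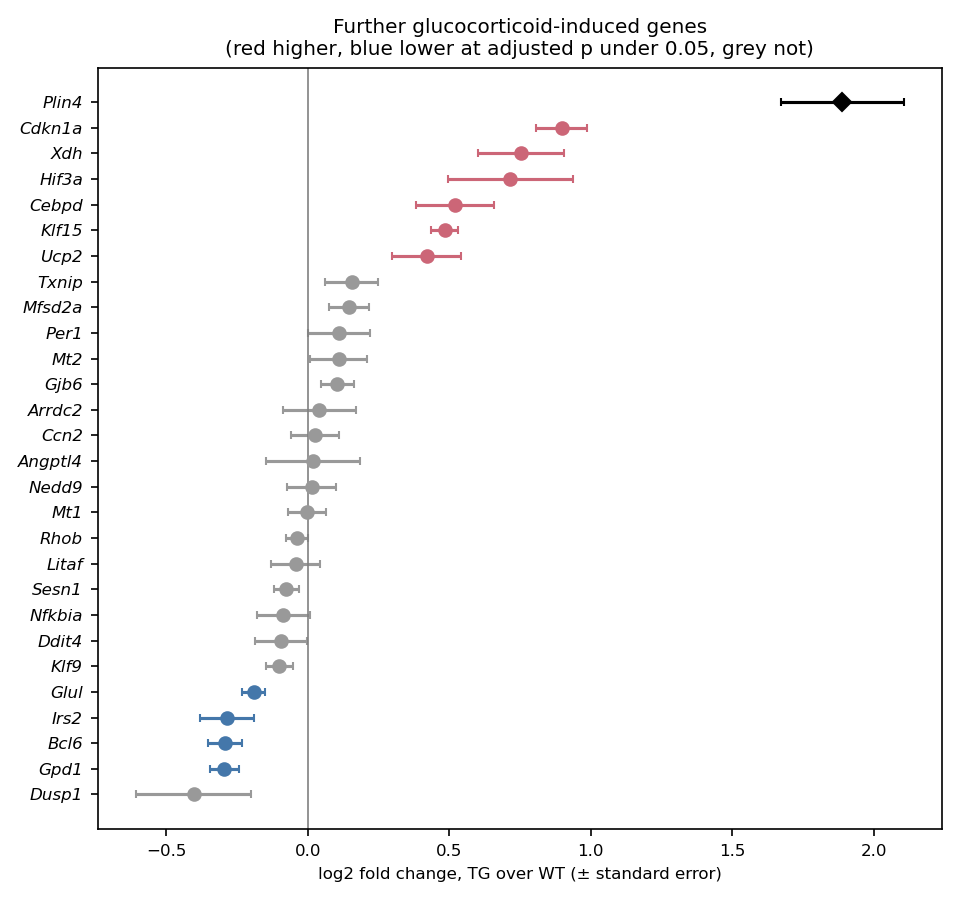
Log2 fold change of TG over WT mice (horizontal axis) with its standard error for the 27 further glucocorticoid-induced genes tested, ordered by size, with Plin4 at the top for comparison. Of them, 6 were higher (red) and 4 lower (blue) at an adjusted p under 0.05, and Plin4 at 1.89 lies beyond the highest of them, Cdkn1a at 0.90.

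Of 18 genes of the machinery of the receptor 17 could be tested, of which 5 were higher and 5 lower in TG mice in edgeR, against 44.7% of all genes called in either direction. Fkbp4, the co-chaperone that competes with the product of Fkbp5, rose by 0.21 ± 0.06 (SE) on the log2 scale, and the adaptor Stip1 rose by 0.19 ± 0.06, whereas the chaperone Hsp90aa1 fell by 0.41 and its partner Ptges3 by 0.38. Hsd11b1, the enzyme that regenerates active hormone inside cells, fell by 0.40. The corepressor Ncor1 rose by 0.13. Of the corticotropin-releasing system, Crh fell by 0.47 and its binding protein Crhbp by 0.33, while the receptor Crhr1 rose by 0.31. The mineralocorticoid receptor Nr3c2, at -0.01 ± 0.07, did not pass.

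The other perilipins were measured beside Plin4. Plin2, the widespread coat protein of lipid droplets, rose from 128 ± 15.9 (SD) to 151 ± 23.9 (SD) normalized counts, by 0.26 ± 0.08 (SE) on the log2 scale with an adjusted p of 0.0129 in edgeR. Plin3 had 0.11 ± 0.06 and did not pass, and Plin1 and Plin5, with 15 and 167 counts in all mice together, were too low to test. Of 11 target genes of PPAR receptors tested, where 23.0% of all genes rose and 21.7% fell, 2 rose, Ehhadh (0.41 ± 0.10) and Plin2, 1 fell and 8 did not pass, with Angptl4 (0.02 ± 0.17) and Cpt1a (-0.08 ± 0.05) among the latter. Of 16 clock genes, whose products follow the time of day as glucocorticoids do, Cry2 rose by 0.18 ± 0.05 and 7 fell, led by Hlf at -0.58 ± 0.05 and Tef at -0.50 ± 0.04, while Per1, Per2 and Nr1d1 did not pass. These 8 of 16 stand beside 44.7% of all genes called in either direction and 21.7% called lower.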

How the data were processed

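RNA from neocortex (RNeasy Plus), the tissue given by the labels, was sequenced by BGI as paired 100-base reads of mRNA libraries. The authors aligned the reads to GRCm38 (mm10), and the counts they deposited are whole numbers for each gene symbol that were not normalized. The submitters' processing notes name HISAT, HISAT2, Bowtie, Bowtie2 and RSEM without their roles, so the counts may be rounded estimates, and the strand setting is not given in the sources used here. The study's methods name DESeq2. Further copies of a symbol had rows of their own (2536 rows, 4.11% of counts), which can split reads. No column was left without a sample. The study's methods name cortex and one of its legends hippocampus for these mice, and the labels were followed.

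Counts were analysed in R 4.3.3 with edgeR 4.0.16 (quasi-likelihood test, TMM scaling, genes with a count of about 10 in enough mice and at least 15 in all, Benjamini-Hochberg adjustment over all genes tested, threshold 0.05). Models held genotype and cohort, their interaction, cohort within 1 genotype, or the 4 groups plus the log2 CPM of Plin4 or Fkbp5 (prior count 2). Standard errors were derived from the fold change and the F statistic. p-values measure the spread between mice. Libraries were grouped by the labels' genotype and batch, called cohort here. The genes and all lists were chosen with earlier results of these data known, and the pituitary list was added after seeing the values. Of each further list, called genes and key receptor genes were named, and of each slope the 10 genes with the greatest positive statistic. Most genes of the lists are given only in counts. Gene lengths came from GENCODE exons and promoters from RefSeq. On simulated counts of 18248 genes, 186 of 200 genes changed by a log2 of 1 between genotypes were recovered with 10 false calls. For an interaction of 1.5 it was 167 of 200 with 9, and for a slope of 2 it was 172 of 200 with 10. The data differ, with 44.7% of genes called by genotype. The genes of the group other than Plin4 changed by 0.39 or less on the log2 scale, so these rates do not carry over to them. Alternatives were DESeq2 1.42.0, other scaling, filters and prior count (0.5), single cohorts or genotypes, Xist or choroid plexus level as covariate, copy rows summed, and mice left out singly or in pairs.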

Additional observations from a re-analysis of the deposited data

Results flagged for a closer look

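Over the 40 groups of values searched, in which chance alone would give about 2, 3 held a mouse far from its group by the ratio of the gap to the whole range. Fkbp5 among TG mice of cohort B had TG mouse 7 at 754.7 normalized counts, with the next mouse at 633 (ratio 0.626). Sgk1 among WT mice of cohort B had WT mouse 5 at 2027, with the next at 1234 (ratio 0.747), the mouse with the most pituitary transcripts among WT mice. Sult1a1 among all TG mice had TG mouse 9 at 303.6, with the next at 216.4 (ratio 0.480), the TG mouse farthest from the others over all genes. Each was the high end of its group.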

How the results depend on the processing

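The direction of Plin4 between genotypes was the same in all 13 alternative fits (1.37 to 2.91) and in all 21 with 1 mouse left out (1.77 to 2.05). The genes of the group past the threshold by genotype were 1 in cohort B alone (7126 of 18220 genes in all), 3 in cohort A alone (2195 of 18580), 2 without TG mice 8 and 9 (7668 of 18390), and 3 (without TG mouse 8, 7805 of 18306) to 5 (without WT mouse 5, 7979 of 18190) with single mice left out. Such counts can hold different genes, as without TG mouse 10 Zbtb16 lost its call (adjusted p = 0.0595 in edgeR) and Nr3c1, lower in TG mice, gained one (adjusted p = 0.0376). Without TG mouse 8 Tsc22d3 lost its call, without WT mouse 5 Sgk1 gained one, and with library size only Errfi1 did (adjusted p = 0.0408). In cohort A alone, 4 of the further glucocorticoid-induced genes passed. The causes of these shifts were not tested.

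For the interaction of genotype and cohort, DESeq2 called 1 gene and leaving out single mice gave 0 to 1, the 1 including the fit without TG mouse 8. Genes differing by cohort in WT mice numbered 1489, against 1985 by DESeq2 and 567 (without WT mouse 11) to 1658 with single mice left out. In TG mice there were 982, against 1849 by DESeq2, 493 without TG mouse 5, 4 with Xist added and 350 (without TG mouse 3) to 2614 (without TG mouse 10) with single mice left out. Genes following Fkbp5 numbered 2 with library size only, 18 in WT mice alone, 3 in TG mice alone, 522 with Xist added, 4 with the choroid plexus level added, 3 with copy rows summed, 3 without TG mice 8 and 9, 643 by DESeq2, 1 without WT mouse 5 and TG mouse 5, and 1 (without WT mouse 5) to 156 (without WT mouse 10) with single mice left out.

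Several values that had not passed the threshold changed sign. The cohort difference of Pdk4 in TG mice was -0.26 with Xist added. The slope on Plin4 was -0.10 for Sult1a1 in WT mice alone, and -0.031 for Sgk1, -0.076 for Errfi1 and -0.24 for Pdk4 in TG mice alone. For Pdk4 it was -0.069 with Xist added, -0.039 with the choroid plexus level added, -0.002 with copy rows summed and -0.17 without WT mouse 5 and TG mouse 5, where Errfi1 had -0.065, and Nr3c1 had 0.030 with the choroid plexus level added. The slope on Fkbp5 was -0.040 for Zbtb16 and -0.30 for Sult1a1 in WT mice alone, and -0.016 for Tsc22d3, -0.38 for Sgk1 and -0.15 for Errfi1 in TG mice alone. It was -0.0064 for Zbtb16 with Xist added, and -0.0087 for Tsc22d3, -0.045 for Sgk1 and -0.097 for Errfi1 without WT mouse 5 and TG mouse 5.

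With single mice left out, the interaction ran from -0.084 to 0.048 for Errfi1 and from -0.29 to 0.0099 for Nr3c1. The cohort difference in WT mice ran from -0.12 to 0.10 for Tsc22d3, from -0.084 to 0.14 for Sgk1, from -0.14 to 0.004 for Zbtb16, from -0.14 to 0.038 for Sult1a1 and from -0.068 to 0.038 for Nr3c1. That in TG mice ran from -0.017 to 0.38 for Sgk1 and from -0.14 to 0.30 for Pdk4. The slope on Plin4 ran from -0.060 to 0.073 for Errfi1, from -0.12 to 0.088 for Pdk4 and from -0.046 to 0.023 for Nr3c1, and that on Fkbp5 from -0.039 to 1.23 for Sgk1, from -0.19 to 0.38 for Zbtb16, from -0.095 to 0.24 for Errfi1 and from -0.24 to 0.019 for Nr3c1. The fits without TG mice 8 and 9, without WT mouse 5 and TG mouse 5, with copy rows summed or with the choroid plexus level, the DESeq2 slopes and the Xist fit in TG mice were added after the values were seen. The 3 TG mice of cohort A and the low counts of Plin4 in WT mice limit the precision.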
